A study of Rattus norvegicus with 2 samples.

Results

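J-domain proteins are the partners that deliver substrates to HSP70 chaperones and stimulate their ATPase. The genes described here are the rows of the deposited expression table whose symbol reads Dnaja, Dnajb or Dnajc followed by a number, leaving out pseudogene names. This gave 42 of 18049 genes, of which 4 are class A, 12 class B and 26 class C. A mean of at least 1 CPM (read counts scaled to a common library total) over both libraries, the limit for calling a gene measured, was reached by 40 of the 42, as it was by 13518 of all genes.

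The cells were wild-type rat oligodendrocyte precursor cells, immunopanned with antibodies to GalC and A2B5 from the cortex of pups aged P2 to P4. They were electroporated with a scrambled siRNA (siSCR) or an siRNA to Hsc70 (siHsc70). The precursors of both groups were then moved to differentiation medium, which holds 60 nM T3 (thyroid hormone) and lacks PDGF-AA, bFGF and NT3. By the design text they are immature oligodendrocytes at day 2 of T3. With 1 library a group, no difference could be tested against the spread between cultures, and no p-values are printed. The siRNA against Hsc70 is printed here because it defines the comparison, and the labels do not say whether it is the sense or the antisense strand.
siHsc70: tcatgactgtcctcatcaa

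All J-domain proteins carry the J domain, a helical hairpin that contacts the ATPase domain of HSP70 and triggers ATP hydrolysis, so that HSP70 closes on its client. Class A members resemble bacterial DnaJ, with a glycine- and phenylalanine-rich stretch and a zinc-finger-like part. Class B members lack the zinc finger, and class C members share only the J domain and are built for particular places such as the ER, mitochondria or clathrin-coated vesicles. HSC70, the product of Hspa8, is the constitutive HSP70 that most cytosolic J-domain proteins work with. In the heat shock response, the transcription factor HSF1 binds inverted repeats of GAA upstream of chaperone genes and activates them.

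The start regions of Dnaja1 and Dnajb1 are shown first. This is because they are the class A and class B genes at least 2-fold higher in siHsc70 on the log2(CPM + 1) scale. Without the added 1, the ratio of Dnajb13, another class B gene, was 2.08. Each line gives 100 bases before and 25 bases after the RefSeq start (assembly GRCr8), and Dnajb2 is shown as the class B gene with the highest level among those that differed by less than 2-fold. Capitals mark the pairs of inverted repeats GAANNTTC or TTCNNGAA, where N is any base, and the Dnajb2 window holds neither.
Dnaja1: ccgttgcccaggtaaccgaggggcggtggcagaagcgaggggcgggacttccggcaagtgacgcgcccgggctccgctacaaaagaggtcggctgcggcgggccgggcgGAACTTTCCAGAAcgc
Dnajb1: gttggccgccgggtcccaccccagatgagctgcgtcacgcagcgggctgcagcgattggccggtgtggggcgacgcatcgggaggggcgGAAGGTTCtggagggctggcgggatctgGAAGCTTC
Dnajb2: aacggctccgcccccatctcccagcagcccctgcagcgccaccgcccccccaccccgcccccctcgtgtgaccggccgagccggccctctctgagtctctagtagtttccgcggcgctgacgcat
The Dnaja1 window is chr5:60638304-60638428 on the plus strand. The Dnajb1 window is chr19:41431117-41431241 on the minus strand. The Dnajb2 window is chr9:84179668-84179792 on the plus strand.

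Promoter entries in the RefSeq table, each 250 bases before to 50 bases after the start, were found for 33 of the 42 members. Those without an entry are Dnaja2, Dnajb4, Dnajc2, Dnajc8, Dnajc11, Dnajc12, Dnajc15, Dnajc22 and Dnajc24. The run of 3 alternating repeats, GAANNTTCNNGAA read on both strands, was found in 1 of the 33 members, Dnaja1, and in 0.798% of all 33469 promoter entries. In Dnaja1 it begins at base 10, counting the start as base 1. The shorter GAANNTTC, which the longer run contains and which reads the same on both strands, was found in 4 of 33 members (12.1%) and in 8.59% of all entries. The members are Dnaja1, Dnajb1, Dnajb6 and Dnajc18. In Dnaja1 it begins 181 bases before the start and at base 10, and in Dnajb1 it begins 11 bases before the start and at base 18. The other arrangement, TTCNNGAA, was found in 2 members, Dnaja1 and Dnajc27 (6.06%), and in 8.77% of all entries. Among the 10645 measured genes with an entry, the shares were 0.47% for the run of 3, 6.16% for GAANNTTC and 7.21% for TTCNNGAA. Of the members with GAANNTTC, Dnajb6 and Dnajc18 had CPM ratios of siHsc70 to siSCR of 1.07 and 0.902. Dnaja4, Dnajb5, Dnajb9, Dnajb13 and Dnajc6, all past 1.5-fold, had none of these repeats in their entries. These matches are descriptions of letters and not measured binding sites.

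As background, the targeted gene Hspa8 was at 1399 CPM in siSCR versus 507 CPM in siHsc70, 2.76-fold lower (95% counting interval 2.69 to 2.83). Total estimated counts were 19085626 in siSCR and 18130817 in siHsc70. Markers of the named cell type were lower: 9 of 10 oligodendrocyte markers were at least 2-fold lower, and their summed level was 7070 CPM in siSCR versus 1569 CPM in siHsc70. Of 5 precursor markers, 3 were at least 2-fold lower (sum 2784 and 1828 CPM). The 8 astrocyte markers summed to 3621 and 3075 CPM, where Gfap alone went from 1416 to 667 CPM, although 5 of the 8 were higher and their median difference was 0.19 (log2). The 8 neuronal markers summed to 745 and 502 CPM. The 8 fibroblast and mural markers summed to 43.3 and 107 CPM, mainly through Col1a1 (24.3 and 73.8 CPM), while Lum was at 2 reads and 0 reads. Microglial markers summed to 6.24 and 10.3 CPM, with Aif1 at 0 reads in siSCR and 1 read in siHsc70. Endothelial markers summed to 8.99 and 5.45 CPM, with Cdh5 at 1 read in siSCR and 0 reads in siHsc70. The part of the culture's makeup in the J-domain differences below was not tested, and in such bulk samples a different number of cells of a type and a different amount of RNA per cell cannot be told apart.

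J-domain genes were more often higher than lower in siHsc70, with the highest class median in class A and the lowest in class C. Each difference is the siHsc70 value of log2(CPM + 1) less that of siSCR, a scale that understates changes of low genes. All 4 class A genes were higher, with a median difference of 0.51. Of 11 measured class B genes 10 were higher, with a median of 0.22. Of 25 measured class C genes 15 were higher and 10 lower, with a median of 0.063. Over all 40 measured members the median was 0.13 and 72.5% were higher, while over all 13518 measured genes the median was -0.0034 and 49.7% were higher. The class medians depend on the scale and on low genes. With the deposited TPM (reads per transcript length, scaled to a common sum), where the median of all measured genes itself stood at -0.13, they were 0.37, 0.081 and -0.076 for A, B and C, and that of all members was -0.0014. With the deposited TPM 9 of the 40 members changed sign, so the counts of higher and lower genes depend on the scale too. With a minimum mean of 5 CPM the class B median was 0.41, close to that of class A.

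On the log2(CPM + 1) scale, 2 of 40 members were at least 2-fold higher, Dnaja1 and Dnajb1, beside 2.29% of all measured genes. None of the 40 was at least 2-fold lower, beside 5.14% of all measured genes. By the rule of at least 1.5-fold, 8 of 40 members differed, beside 21.7% of all measured genes in either direction. All 8 were higher in siHsc70, beside 9.65% of all measured genes, and 0 of 40 were lower, beside 1626 of 13518 genes. The 8 are 2 of 4 class A genes, 5 of 11 class B genes and 1 of 25 class C genes. The member just inside this limit was Dnajb9 at 0.61, and those nearest outside it were Dnajc7 at -0.55 and Dnajc12 at 0.47. With the deposited TPM the 1.5-fold counts were 5 higher and 1 lower.

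**Figure D1:**
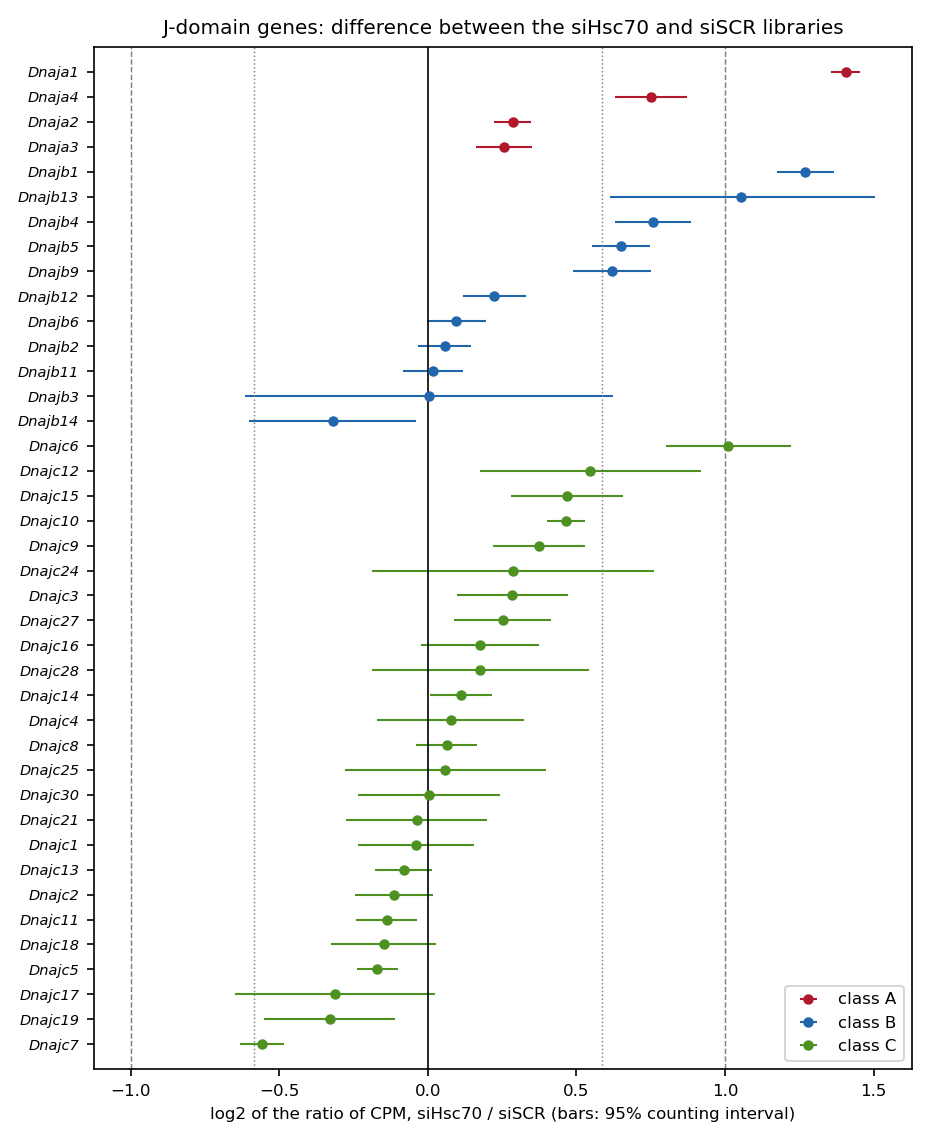
Log2 ratio of CPM in siHsc70 to siSCR for the 40 measured J-domain genes, ordered within class A, B and C. Points are the ratios of 1 library per group without a pseudocount, bars are 95% exact counting intervals, and dashed and dotted lines mark 2-fold and 1.5-fold. Class A lies wholly to the right of 0, while class C spreads to both sides, with Dnajc7 the furthest to the left.

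Class A. The cytosolic class A genes encode general cochaperones that help HSC70 fold new and unfolded proteins. Dnaja1 (gene ID 65028), whose product is farnesylated, was at 244 CPM in siSCR versus 645 CPM in siHsc70, 2.65-fold higher (2.56 to 2.74). Its close relative Dnaja2 (gene ID 84026) was at 195 and 238 CPM, 1.22-fold higher (1.17 to 1.27). Dnaja4 (gene ID 300721) was at 46.8 and 78.7 CPM, 1.68-fold higher (1.55 to 1.83). The intervals of these 3 genes do not overlap each other, so the cytosolic class A genes differed unequally between the libraries by more than counting error. Dnaja3, the mitochondrial member that serves the mitochondrial HSP70, was at 90.4 and 108 CPM, 1.19-fold higher (1.12 to 1.27). Its interval overlaps that of Dnaja2.

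Class B of the cytosol and nucleus. The genes listed as built like Dnajb1, the classical HSP40, were higher. All 4 passed the 1.5-fold rule and 1 the 2-fold rule, and their median was 0.81. The list was drawn up with earlier results of these data known. Dnajb2 and Dnajb6, which also act in the cytosol and nucleus, are in the next list. With the deposited TPM, Dnajb4 at 0.52 and Dnajb5 at 0.51 (log2) no longer passed the 1.5-fold rule. Dnajb1 (gene ID 361384), which supports HSC70 in refolding and in dissolving aggregates, was at 64.7 CPM in siSCR versus 156 CPM in siHsc70, 2.41-fold higher (2.26 to 2.58). Its interval overlaps the lower end of that of Dnaja1 and lies above those of Dnajb4 and Dnajb5. Dnajb4 was at 42.2 and 71.4 CPM, 1.69-fold higher (1.55 to 1.85). Dnajb5 was at 74.9 and 118 CPM, 1.57-fold higher (1.47 to 1.68). Both stood at about the size of Dnaja4, whose interval overlaps theirs. Dnajb13, known from the axoneme of sperm flagella and cilia, was low, at 65.83 and 128.02 estimated counts. These are 3.43 and 7.12 CPM, 2.08-fold higher (1.53 to 2.84), or 0.87 on the log2 scale with the pseudocount.

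The class B genes that handle misfolded and ubiquitinated proteins stayed close to their siSCR level. Dnajb2, which binds ubiquitinated clients, was at 109 CPM in siSCR versus 114 CPM in siHsc70, a ratio of 1.04 (0.978 to 1.11). Dnajb6, a strong suppressor of polyglutamine aggregation, was at 85.8 and 91.7 CPM, a ratio of 1.07 (0.998 to 1.14). Both intervals include 1 and stop short of 1.2, so that a difference as large as that of Dnajb4 lies outside counting error for either. Dnajb3 was at 48 and 45 estimated counts, and its interval (0.653 to 1.54) is too wide to tell. Dnajb7 was not measured, with 0 counts in siSCR and 5 in siHsc70, and a count of 0 allows a level of up to 0.156 CPM (3 counts) in siSCR. Of the 3 measured genes of this list, the median was 0.056 and 0 passed the 1.5-fold rule.

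Class B of the endoplasmic reticulum. The ER-lumen and ER-membrane members did not move as a block, with a median of 0.12 and 1 of 4 past the 1.5-fold rule. Dnajb9, a cochaperone of the ER HSP70 BiP that represses the stress sensor IRE1, was at 41.5 CPM in siSCR versus 63.8 CPM in siHsc70, 1.54-fold higher (1.40 to 1.68), and with the deposited TPM it no longer passed the rule (0.47, log2). Dnajb11, which brings secretory clients to BiP, was at 86.6 and 87.6 CPM, a ratio of 1.01 (0.944 to 1.08). Dnajb12 and Dnajb14 sit in the ER membrane with the J domain facing the cytosol, where they work with HSC70 in degradation of membrane proteins. Dnajb12 was at 71.1 and 83.0 CPM, 1.17-fold higher (1.08 to 1.26). Dnajb14 was at 12.8 and 10.3 CPM, 1.25-fold lower (1.03 to 1.52), the only measured class B gene below its siSCR level by CPM. The intervals of Dnajb12 and Dnajb14, a related pair, lie on opposite sides of 1. With the deposited TPM, Dnajb2, Dnajb3, Dnajb6 and Dnajb11 were below siSCR too, with ratios of 0.967, 0.910, 0.953 and 0.918.

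Class C with TPR repeats. Dnajc7 (gene ID 303536), whose TPR repeats bind both HSP70 and HSP90 and which passes clients between them, was the furthest below siSCR of all 40 measured members. It was at 202 CPM in siSCR versus 137 CPM in siHsc70, 1.47-fold lower (1.40 to 1.55), just under the 1.5-fold limit. With the deposited TPM it was at 272 and 166, past that limit, and with the deposited FPKM, another length-scaled value, it was at 131 and 86.6, also past it. Dnajc3, the other listed TPR member, acts inside the ER and was at 23.1 and 28.1 CPM, 1.22-fold higher (1.07 to 1.38).

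Class C of vesicles. HSC70 strips clathrin from coated vesicles when a J-domain protein recruits it to the coat. In neurons that protein is auxilin, encoded by Dnajc6, which was at 14.9 CPM in siSCR versus 30.0 CPM in siHsc70, 2.01-fold higher (1.74 to 2.33) and 0.96 on the scale with the pseudocount. Its broadly expressed counterpart Gak, whose name lies outside the pattern used, was at 153 and 172 CPM, 1.12-fold higher (1.07 to 1.18). Per length, Dnajc6 stood at 6.19 and 11.3 TPM against 75.8 and 77.2 TPM for Gak, so Gak remained the more abundant of the pair in both libraries. Of 8 neuronal markers, 5 were lower by the 1.5-fold rule, beside 1626 of 13518 genes, and 2 were higher, beside 9.65%. The 2 higher were Snap25, 2.00-fold (1.68 to 2.40), and Stmn2, 1.71-fold (1.41 to 2.07). Any part of neuronal cells in the Dnajc6 difference was not tested. The remaining vesicle members differed little. Dnajc5, the cysteine string protein that with HSC70 keeps SNAP25 folded, was at 194 and 172 CPM, 1.13-fold lower (1.07 to 1.18). Dnajc13, which acts with HSC70 in endosomal sorting, was at 96.7 and 91.4 CPM, a ratio of 0.945 (0.884 to 1.01). Dnajc27, which carries a RAB-like GTPase part, was at 30.4 and 36.2 CPM, 1.19-fold higher (1.06 to 1.33).

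Class C of the endoplasmic reticulum. None of 6 measured genes passed the 1.5-fold rule, and 4 were higher and 2 lower, with a median of 0.14. Dnajc10, an ER disulfide reductase that works with BiP, was the furthest from 0 and the most abundant by TPM. It was at 186 CPM in siSCR versus 256 CPM in siHsc70, 1.38-fold higher (1.32 to 1.44). Dnajc14 and Dnajc16 had ratios of 1.08 (1.00 to 1.16) and 1.13 (0.985 to 1.30), and Dnajc1 and Dnajc18 had ratios of 0.972 (0.849 to 1.11) and 0.902 (0.798 to 1.02). Only Dnajc3, Dnajc10 and, narrowly, Dnajc14 had intervals above 1.

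Class C of mitochondria. The genes of this list lay on both sides of 0, with a median of 0.0041 and 0 of 5 past the 1.5-fold rule. Dnajc15 and Dnajc19 encode related inner-membrane J-domain proteins of the protein import motor, and they differed in opposite directions. Dnajc15 was at 21.2 CPM in siSCR versus 29.2 CPM in siHsc70, 1.38-fold higher (1.21 to 1.58). Dnajc19 was at 20.9 and 16.6 CPM, 1.26-fold lower (1.08 to 1.46). The ratio of the pair therefore shifted toward Dnajc15: per length, the levels were 60.7 and 70.8 TPM in siSCR, and 76.2 and 51.9 TPM in siHsc70, for Dnajc15 and Dnajc19. Dnajc11, a protein of the cristae-organising complex and the most abundant of the list by TPM in siSCR, was at 85.8 and 77.8 CPM, 1.10-fold lower (1.03 to 1.18). Dnajc4 and Dnajc30 had ratios of 1.05 and 1.00, with intervals that include 1.

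Class C of the nucleus, RNA and translation. None of 6 genes passed the 1.5-fold rule, with 3 higher, 3 lower and a median of 0.014. Dnajc9, a histone H3-H4 chaperone, was at 32.8 CPM in siSCR versus 42.5 CPM in siHsc70, 1.30-fold higher (1.16 to 1.44), the only one of the 6 whose interval excludes 1. Dnajc8, linked to splicing and the most abundant of this list per length, was at 81.3 and 85.0 CPM, a ratio of 1.05 (0.974 to 1.12). Dnajc2, the J-domain subunit of the ribosome-associated chaperone complex, was at 52.9 and 48.9 CPM, a ratio of 0.924 (0.843 to 1.01). Dnajc21, of ribosome maturation, Dnajc17 and Dnajc24, of diphthamide synthesis, had ratios of 0.974, 0.806 and 1.22, each with an interval that includes 1.

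The class C genes outside these lists were low. Dnajc12 was at 5.56 CPM in siSCR versus 8.12 CPM in siHsc70, 1.46-fold higher (1.13 to 1.89). Dnajc25 and Dnajc28 had ratios of 1.04 (0.824 to 1.32) and 1.13 (0.878 to 1.45). Dnajc22 was not measured, with 9 counts in siSCR and 17 in siHsc70. Over the 40 measured members, 17 had an interval that includes 1. It lay wholly above 1 for 18 members, beside 32.5% of all measured genes, and wholly below 1 for 5 members, beside 33.8%.

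The level per length shows which J-domain transcripts dominated. In siSCR, Dnaja1 was first with 329 TPM, followed by Dnajc7 with 272 and Dnaja2 with 228, and together they made 32.5% of the summed TPM of the 42 genes. In siHsc70, Dnaja1 reached 788 TPM, Dnaja2 252 and Dnajc7 166, and these 3 made 39.6%. Dnaja1 alone went from 12.9% to 25.8% of the J-domain total and Dnajc7 went from 10.7% to 5.45%. Dnajb1 moved from place 13 to place 4 in the order of levels, and Dnajc19 from place 12 to place 20. Many neighbours in the middle of the order stood close together: Dnajb2, Dnajb11, Dnajb6, Dnajc10 and Dnaja3 lay between 92.8 and 102.7 TPM in siSCR. These levels have no replicate error, so the order among them is not settled.

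**Figure D2:**
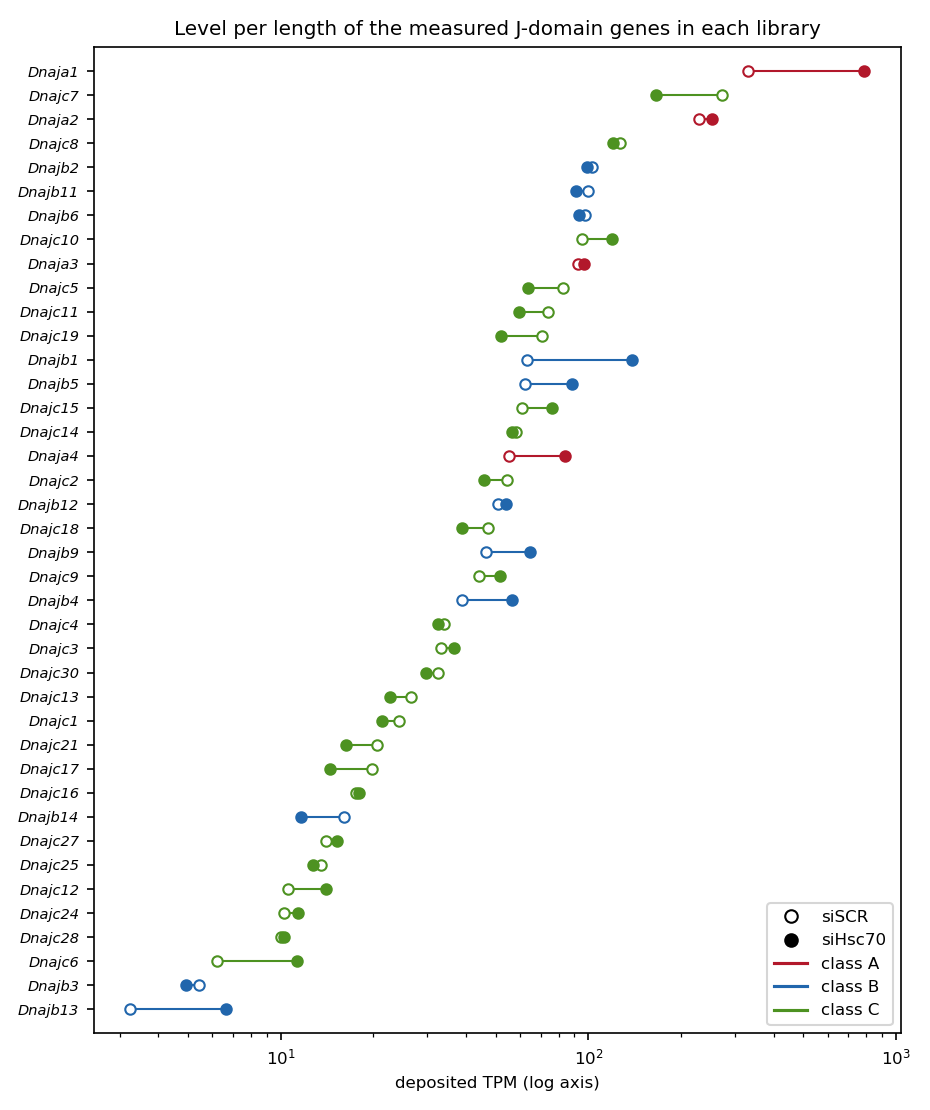
Deposited TPM on a log axis for the 40 measured J-domain genes, ordered by their siSCR level, with open points for siSCR and filled points for siHsc70 (1 library each). Dnaja1 is first in both libraries, at 329 and 788 TPM, and Dnajc7 is the abundant gene that moves left, from 272 to 166 TPM.

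Summed over the 42 genes, J-domain transcripts went from 2551 TPM in siSCR to 3048 TPM in siHsc70, a ratio of 1.19 on a scale where the median gene stood lower in siHsc70. Without Dnaja1 the sums were 2222 and 2260 TPM, a ratio of 1.02. By class, the sum of class A went from 705 to 1221 TPM and that of class B from 586 to 709 TPM, while that of class C went from 1260 to 1117 TPM. In CPM the class C sum went the other way, from 1273 to 1292, and that of class A from 576 to 1069. By TPM, class A with its 4 genes thus had the largest sum in siHsc70, whereas by CPM class C did. The 6 cytosolic class A and class B genes Dnaja1, Dnaja2, Dnaja4, Dnajb1, Dnajb4 and Dnajb5 went from 776 to 1407 TPM, from 30.4% to 46.2% of the J-domain total. They are the listed cytosolic class A genes and the Dnajb1-like class B genes without the axonemal Dnajb13, a set put together with their values known. Without Dnaja1 the sum of the remaining 5 went from 447 to 619 TPM. With Dnajb2 and Dnajb6, which also act in the cytosol and nucleus, the 8 genes made 38.3% and 52.5% of the total. The other 36 J-domain genes went from 1774 to 1641 TPM, but from 1776 to 1860 in CPM.

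The ratio of HSP70 transcripts to these cochaperone transcripts was lower in siHsc70. Because the siRNA targets Hspa8, the fall of a ratio with Hspa8 on top was in part built into the comparison. The TPM of Hspa8 was 1.84 times the sum of the 6 cytosolic genes in siSCR and 0.334 times that sum in siHsc70. The inducible HSP70 genes Hspa1a and Hspa1b went from 43.5 to 377 TPM in sum, and Hspa8 from 1431 to 471 TPM. With these 2 genes added to Hspa8, the ratio to the 6 cytosolic J-domain genes was 1.90 in siSCR and 0.602 in siHsc70. For Dnaja1 alone the corresponding ratios were 4.48 and 1.08. All of these are ratios of transcript levels, and protein was not measured here. They leave out Hspa2, another gene of the HSP70 family, which went from 32.55 to 79.03 TPM. They also leave out Dnajc7, which went from 272 to 166 TPM.

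**Figure D3:**
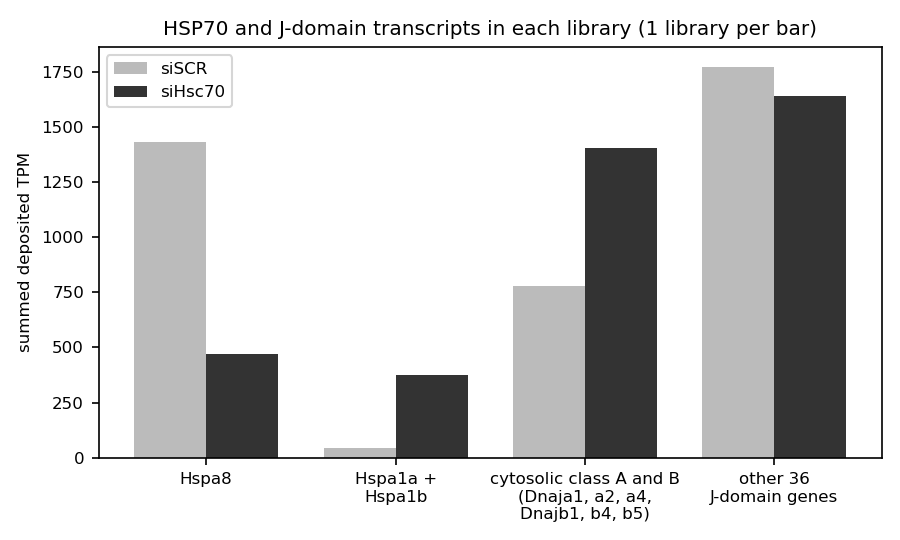
Summed deposited TPM of Hspa8, of Hspa1a and Hspa1b, of the 6 cytosolic class A and class B genes and of the other 36 J-domain genes, with 1 bar for each library. Hspa8 goes from 1431 to 471 TPM while the 6 cytosolic J-domain genes go from 776 to 1407 TPM and the other J-domain genes go from 1774 to 1641 TPM (1776 to 1860 in CPM).

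Other parts of the HSP70 cycle were compared from lists of exchange factors and of J-domain genes named outside the pattern. Exchange factors release ADP, and with it the client, after the J-domain step. Of 16 measured exchange factors and cochaperones, 1 passed the 2-fold rule and 4 the 1.5-fold rule upward, 0 passed either downward, and the median was 0.38. Of all measured genes, 2.29% passed the 2-fold rule and 9.65% the 1.5-fold rule upward. Downward, 5.14% passed the 2-fold rule and 1626 of 13518 genes the 1.5-fold rule. The 2-fold member was Hsph1, the HSP110 exchange factor of HSC70, at 107 CPM in siSCR versus 324 CPM in siHsc70, 3.04-fold higher (2.89 to 3.19). That is above the interval of Dnaja1. Of the 5 genes listed outside the pattern 0 passed the 1.5-fold rule, with a median of 0.17. The ER translocation subunit Sec63 had a ratio of 1.04 (0.990 to 1.10), and Hscb, which serves iron-sulfur cluster assembly in mitochondria, one of 1.52 (1.30 to 1.79), or 0.57 on the log2 scale with the pseudocount.

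The deposited values also carry a hint of transcript makeup, because the estimated count divided by the FPKM is proportional to the length the authors' program assigned to a gene. The quotient was compared between the libraries relative to its median over measured genes. Most shifts were small, under 0.5% for 29 of 40 members, though beyond the rounding of the FPKM for 20. The median absolute shift was 0.088% over the 40 members, beside 0.187% over 13494 measured genes with an FPKM above 0 in both libraries. A shift of over 5% was found for 3 of 40 members (7.5%) and for 6.90% of those genes, so the family is near the background. The 3 members are Dnajc21, whose assigned length was 11.6% longer in siHsc70 (11.5 to 11.7 from rounding), Dnajb4, 6.06% longer, and Dnajb13, at -7.43%. In Dnajc21 the estimated counts were alike, 313 and 285, so that its CPM ratio of 0.974 compares with a TPM ratio of 0.792. The assigned lengths of Dnaja1 and Dnajb1 shifted by 0.394% and 0.034%. Of the 42 members, 7 had estimated counts that are not whole in at least 1 library (beyond 0.005), which marks reads divided among genes, beside 26.5% of all genes in siSCR and 26.7% in siHsc70. They are Dnajb4, Dnajb6, Dnajb9, Dnajb13, Dnajc14, Dnajc17 and Dnajc19, and for Dnajb6 a pseudogene row, Dnajb6-ps10, held 249.68 counts in siSCR and 279.91 in siHsc70.

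**Figure D4:**
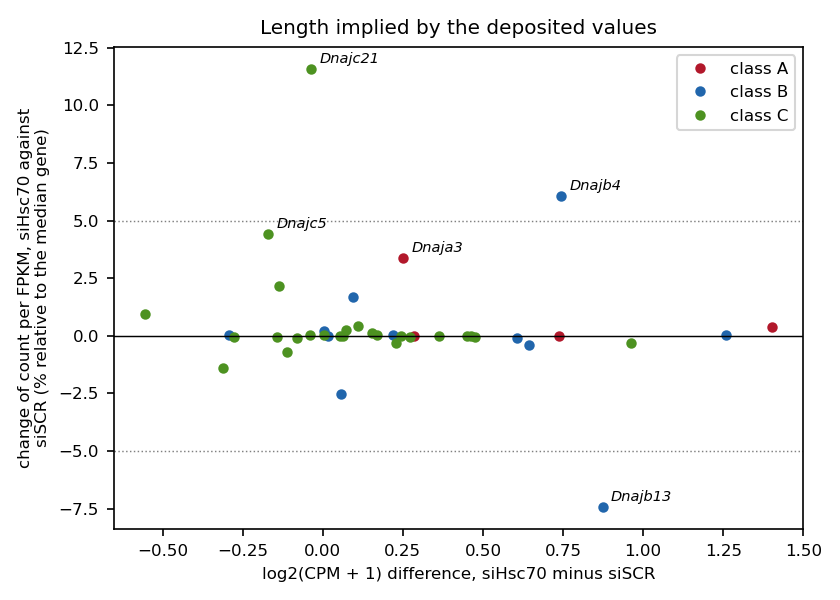
Change of the estimated count per FPKM between siHsc70 and siSCR, in percent relative to the median gene, against the log2(CPM + 1) difference for the 40 measured J-domain genes. Dotted lines mark 5%. Dnajc21, at 11.6%, Dnajb4 and Dnajb13 lie beyond them, while Dnaja1 and Dnajb1 at the right edge lie near 0.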

How the data were processed

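The analysis used 1 series-wide table, whose columns were tied to the 2 samples by the siRNA in their names. It holds estimated counts per gene, FPKM and TPM as deposited by the authors, per the file headers. The TPM columns sum to 999999.8 and 999999.4. No aligner, quantification program, annotation or strand setting is given in the sources used here. The build mm39 appears in the submitters' processing notes, yet all 42 member IDs are rat gene IDs with the same symbol in RefSeq (GRCr8).

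Estimated counts were rounded and scaled to CPM with the TMM factors of edgeR 4.0.16 (R 4.3.3), 1.01 for siSCR and 0.992 for siHsc70. Ratios carry 95% Clopper-Pearson intervals, which cover counting error only. They treat the rounded counts as independent reads, so they are too narrow where reads are not independent molecules. LOC names took their current RefSeq symbol. Values in both libraries were given for members past the 1.5-fold rule and for the most abundant and most different member of each class and role list. Some further members were also given with both values, and the rest by ratio or counts. The procedure was tested on simulated counts that varied by counting error only, so that test does not bear on the spread between cultures. Members, lists and motifs were chosen with earlier results of these data known. Other pseudocounts, minimum levels, scalings, units and row assignments were tried, 10 in all, 1 of them added after seeing the data.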

Additional observations from a re-analysis of the deposited data

How the results depend on the processing

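Of the 8 members at least 1.5-fold higher, Dnajb9 fell below that limit with library totals only and with the deposited FPKM, and Dnajb4, Dnajb5 and Dnajb9 did so with the deposited TPM, which left 5. With TPM centred on the median of all measured genes, the alternative added after seeing the data, all 8 passed. The number at least 1.5-fold lower was 1, Dnajc7, with the deposited TPM and with the deposited FPKM, against 0. The 2-fold rule was passed upward by 4 members with a pseudocount of 0.1 CPM, Dnajb13 and Dnajc6 being added, and by 3 with upper-quartile scaling, against 2. With the deposited TPM the class medians were 0.37 for A, 0.081 for B and -0.076 for C, against 0.51, 0.22 and 0.063, and the median of all members was -0.0014. With a minimum mean of 5 CPM, which leaves 38 members, the class B median was 0.41. No member past the 1.5-fold rule changed sign under any of these 10 alternatives. Of the 40 measured members, 9 changed sign with the deposited TPM, all at most 0.11 in size before. With library totals only and with the deposited FPKM 3 each did so, with upper-quartile scaling 2 and with centred TPM 1. The counts of members higher and lower therefore depend on the scale. No paired analysis was possible because each group has 1 library, and for the same reason no library could be left out. Depth limits low members such as Dnajb3, Dnajb7, Dnajb13, Dnajc22 and Dnajc24, each with fewer than 150 counts in either library.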

Other observations

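Across the measured genes with a promoter entry (10645 genes), 50 held the run GAANNTTCNNGAA, Dnaja1 among them, and 11 of these (22.0%) were at least 1.5-fold higher in siHsc70, beside 9.11% of all 10645, a difference that was not tested. For the shorter GAANNTTC the share was 11.9% of 656 genes. The heat shock run does not stand alone in this: of 59 genes with the amino acid response core TGATGNAAT, 14 (23.7%) were at least 1.5-fold higher. The ER stress element, CCAAT and CCACG with 9 bases between them, was found in 1 of 33 members, Dnajc3. It was found in 0.0657% of all promoter entries and in 0.15% of the 10645 measured genes. All motifs were searched on both strands. The median difference of the measured genes was 0.215 with the heat shock run, 0.00638 with its shorter form and -0.0079 with the amino acid response core. For the other motifs searched, the shares past 1.5-fold were 12.7% for TATAAA, 11.0% for TTCNNGAA, 8.39% for CCAAT and 6.25% for the ER stress element. None of these shares or medians was compared by a test. The amino acid response core was found in 0 of 33 (1.09% of all entries), TATAAA in 3 of 33 (9.09%, beside 14.2%) and CCAAT in 12 of 33 (36.4%, beside 37.5%). Among the 10645 measured genes these shares were 0.554%, 7.22% and 39.0%. The TATAAA share of the members was thus below that of all entries but above that of the measured genes.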
